A study of Arabidopsis thaliana with 46 samples.

Results

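A set of 92 Arabidopsis thaliana probe sets was higher on nitrogen-rich than on nitrogen-free medium in the light, and differed by less than 0.5 log2 units in that direction in the dark. The set was chosen from measured values. Each member had a group mean at least 1 log2 unit (2-fold) higher on N-rich than on N-absent medium in the light, both in wild-type COL-0 and in the T-DNA line SALK_070989, and a difference under 0.5 between the corresponding dark groups in both genotypes. Among the 22746 probe sets of the array that are not controls, 97 met these limits, and 5 genes (PUB19, CML37, WRKY6, WRKY53 and LEA4-5) were left out by name, which gave the 92. For comparison, 298 probe sets reached the light limit in both genotypes whatever they did in the dark, and 96 reached a difference of 1 in all 4 contrasts. Of the 92 members, 45 pair with 1 gene in the platform annotation, 2 pair with several genes, and 45 are known here only by their probe set numbers. The label "nitrogen-induced in light only" restates these limits on differences between nitrogen treatments and is no finding. It does not say that the transcripts were missing from dark-treated shoots, and 19 members had a dark difference above 0 in both genotypes, as AT3G03440 did (0.40 and 0.46).

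Nitrate and ammonium are both nutrients and signals for plants, and within hours of resupply shoots change the transcripts of nitrate uptake, nitrate reduction and the regulators that control them. Reduction and assimilation of nitrate draw on reductant and carbon skeletons from photosynthesis, so nitrogen responses in shoots depend on light and sugar status. Heat shock proteins, AP2/ERF transcription factors, calmodulin-like proteins and detoxifying enzymes, which appear among the members, are best known from plant responses to heat, wounding and other stress.

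The arrays came from shoots of 14-day-old plants harvested 2 h after the lights came on. The plants had grown at 22 °C on 0.1% sucrose, with a light period of 16 h at 50 µmol m-2 s-1 and 8 h of night. The labels also give 3 days of cold for every sample. The genotypes were COL-0 and 3 insertion lines of WRKY1, which encodes a WRKY transcription factor: SALK_016954, SALK_136009 and SALK_070989. For the nitrogen experiment in the light, COL-0 and SALK_070989 grew on 1 mM KNO3 and were moved for 2 h to 20 mM KNO3 with 20 mM NH4NO3 (N-rich) or to 20 mM KCl (N-absent). The media thus differed in nitrate, ammonium, chloride and total salt at once, and the effects of these cannot be told apart. For the combined experiment, the same 2 genotypes were kept dark and received treatment 1 or 2, taken here as N-absent and N-rich. The sample titles name these only as combined treatments 1 and 2, and the sign of every dark nitrogen difference rests on that reading. The labels do not give the media or transfer times of this experiment. It is a separate experiment, and in any comparison of its arrays with the light nitrogen arrays, the effect of darkness and that of the experiment cannot be told apart. On full medium, COL-0 and SALK_070989 were kept in the light or wrapped in foil from day 13 to harvest, and all 4 genotypes were also profiled in a steady-state light group. Each of 14 groups held 3 arrays, and the COL-0 dark N-absent and dark N-rich groups held 2, which gave 46 arrays. All values are GCRMA log2 values with a floor near 2.23, and 26.4% of the table's values lay within 0.01 of that floor. A group mean under 4 is called low below. WRKY1 read 6.57 to 7.84 on the 19 COL-0 arrays, 2.23 to 3.26 on the 21 SALK_070989 arrays, 2.23 to 2.31 in SALK_016954 and 3.93 to 4.45 in SALK_136009. The shoot marker RCA read 10.87 to 14.05 on all arrays. Of the root markers with a probe set, the root hair gene EXPA7 read 2.23 to 3.29, while PYK10 read 10.44 to 12.32 in these shoots. By limma, PYK10 was lower on N-rich medium in the dark (-0.76 in COL-0, adjusted p = 0.00067, and -0.43 in SALK_070989, adjusted p = 0.015) and in the light in SALK_070989 (-0.41, adjusted p = 0.027), and RCA was higher on N-rich medium in the COL-0 dark groups (0.57, adjusted p = 4.6e-05). Their part in the results was not tested. Each array measured RNA from whole shoots, so fewer cells expressing a gene and less of its RNA per cell cannot be told apart.

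In the light, the median N-rich minus N-absent difference of the members was 1.51 in COL-0 (range 1.02 to 3.62) and 1.67 in SALK_070989 (1.03 to 4.17). Over the 14288 probe sets with a highest group mean above 4, the medians were -0.042 and -0.032. In the dark, the members' medians were -0.10 in COL-0 (-1.90 to 0.46) and 0.03 in SALK_070989 (-2.27 to 0.49). These contrasts chose the members, so the members' values describe the set and are given with no test. All 3 N-rich arrays lay above all 3 N-absent arrays for 86 of the 92 in COL-0 and 89 in SALK_070989, beside 14.8% and 14.6% of the 14288 probe sets. Differences of at least 2 in both genotypes were measured for 19 members and of at least 3 for 3 members, while 24 members had a smaller difference under 1.25. The members nearest the light limit were 260362_at (1.02 and 1.03) and 261838_at (1.02 and 1.04), and the nearest outside it were AT4G20000, with 1.39 in COL-0 and 0.999 in SALK_070989, and 256245_at, with 0.974 and 1.15. At the dark limit, AT3G01830 (0.494 in SALK_070989) and 246293_at (0.493) were just inside, and AT5G54860 (0.506) and the glutaredoxin gene GRX480 (0.521) just outside.

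**Figure D1:**
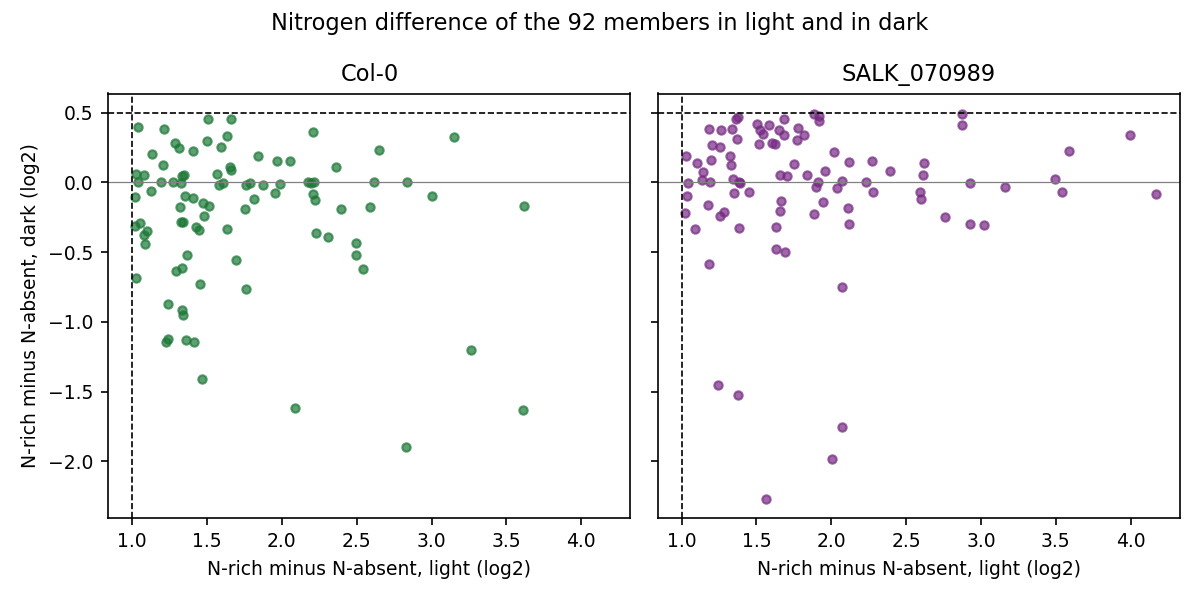
N-rich minus N-absent difference of group means (log2) in the light (x axis) and in the dark (y axis) for the 92 members, 1 point per probe set, in COL-0 (left) and SALK_070989 (right). The dashed lines are the limits of 1 and 0.5 that chose the members, and points reach down to -1.90 in COL-0 and -2.27 in SALK_070989.

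The members were highest on N-rich medium in the light and lowest in full-medium darkness. The median over the 92 members was 6.30, 6.38 and 5.93 on the 3 COL-0 N-rich arrays and 4.31, 4.33 and 4.53 on the N-absent arrays. In SALK_070989 the medians were 6.77, 6.47 and 6.41 on N-rich and 4.69, 5.05 and 4.44 on N-absent medium. Dark N-absent arrays read 4.09 and 3.95 in COL-0 and 3.63 to 4.05 in SALK_070989, and dark N-rich arrays 3.49 and 3.40 in COL-0 and 3.48 to 4.01 in SALK_070989. No dark nitrogen array therefore reached the level of a light N-absent array in the median. On full medium the medians were 3.84 to 4.15 in the COL-0 steady group, 3.54 to 3.78 in the COL-0 light group and 2.95 to 2.99 in the COL-0 dark group.

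**Figure D2:**
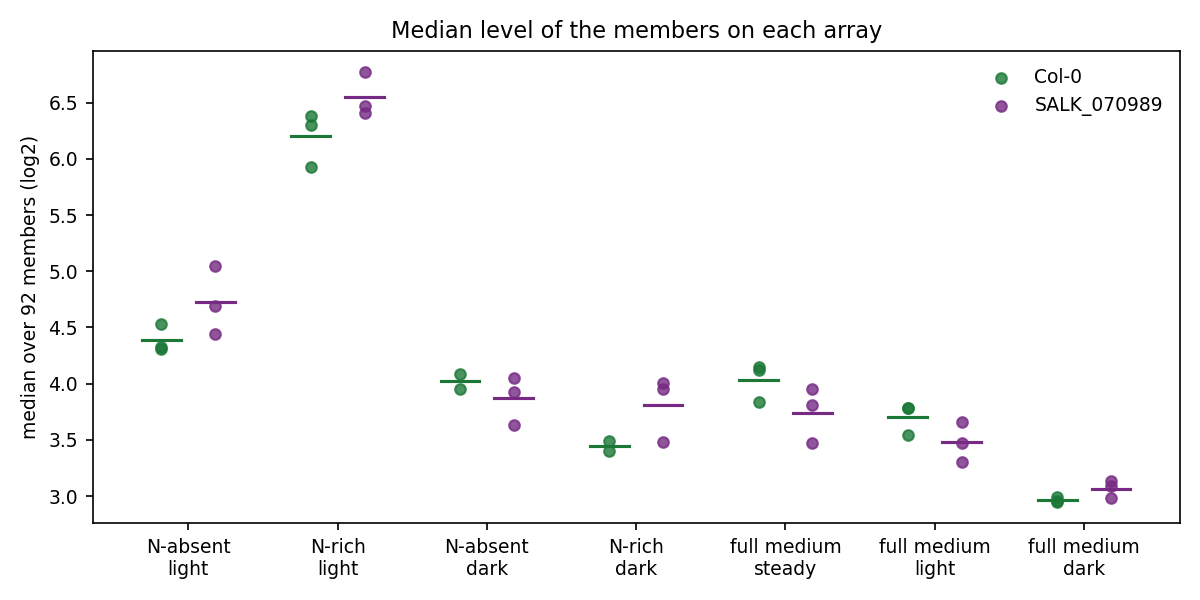
Median log2 level over the 92 members on each array (points) with the mean of the arrays of a group (lines), for COL-0 (green) and SALK_070989 (purple) in 7 conditions. The 6 light N-rich arrays lie at 5.93 to 6.77 and all other arrays shown at or below 5.05.

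The alkenal reductase family of zinc-binding dehydrogenases, enzymes that reduce reactive carbonyls, gave 3 member probe sets from 1 stretch of chromosome 5. AT5G16960 differed by 2.83 in COL-0 and 4.17 in SALK_070989. Taking the smaller of the genotypes' values, it and AT1G22810 (2.83 and 3.59) led the members with 1 gene, and the AT1G22810 values are lower bounds because its N-absent arrays were near the floor. It read 5.85, 6.71 and 5.94 on COL-0 N-rich arrays against 3.71, 2.76 and 3.53 on N-absent arrays, and 7.31, 6.42 and 6.13 against 2.36, 2.57 and 2.42 in SALK_070989. Its 10 dark nitrogen arrays lay between 2.36 and 2.70 and its 24 full-medium arrays between 2.23 and 2.65, so readings above 2.70 occurred only on light nitrogen arrays. AT5G16980 differed by 2.23 and 2.76 and was well above the floor in all groups: COL-0 read 8.26, 8.59 and 7.81 on N-rich and 6.23, 5.72 and 6.03 on N-absent medium, and 4.27 to 4.87 on the 4 dark nitrogen arrays. The probe set annotated to both AT5G17000 and AT5G16980 differed by 1.24 and 1.38, and may read the same transcript as the AT5G16980 probe set. AT5G16990, which lies between them and is no member, had differences of -0.19 and 0.29 in the light and -0.41 and -0.09 in the dark. The nitrogen differences within this gene cluster were thus unequal.

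Of the UGT73 family of UDP-glucosyltransferases, which attach glucose to hormones, flavonoids and foreign compounds, UGT73C1 and UGT73B1 were members. UGT73C1 read 5.44, 6.03 and 4.66 on COL-0 N-rich arrays and 4.06, 2.28 and 3.25 on N-absent arrays, and 5.34, 4.92 and 4.005 against 2.96, 2.25 and 2.35 in SALK_070989. It was at 2.23 on all 10 dark nitrogen arrays. UGT73B1 was at a higher level, 7.69, 7.69 and 7.02 against 6.36, 6.34 and 6.30 in COL-0, with 6.41 to 6.93 on the 4 COL-0 dark nitrogen arrays. Relatives looked up after these values were seen had unlike differences. UGT73B5 (2.67 and 2.74 in the light), UGT73B4 (2.57 and 1.99) and a probe set shared by UGT73B2 and UGT73B3 (1.61 and 1.82) had light differences as large as the members', and were outside the dark limit with differences of 1.08, 1.61 and 0.58 in SALK_070989. In COL-0 their dark differences were 0.17, 0.84 and -0.02, so UGT73B4 was outside it in both genotypes. UGT73C7 went the other way, with -0.04 and 0.05 in the light and 1.10 and 1.62 in the dark.

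Heat shock chaperones and their partners accounted for 5 member probe sets. The probe sets of such genes on the whole array were not counted, so the 5 only describe the set. The class I small heat shock proteins, which hold unfolding proteins in solution, were measured by AT1G53540, AT2G29500 and a probe set shared by AT1G59860 and AT1G07400. The shared probe set had the largest difference of the 5, with 7.07, 7.46 and 6.75 on COL-0 N-rich arrays against 3.53, 3.92 and 4.05 on N-absent arrays, and 6.87, 7.55 and 7.05 against 3.09, 2.65 and 3.75 in SALK_070989. On the 24 full-medium arrays it read 2.23 to 2.65. AT1G53540 lay at 2.25 to 2.27 on the N-absent arrays of both genotypes, at 3.75 to 4.95 on the N-rich arrays, and at 2.23 to 2.46 on all others. AT5G48570, the peptidyl-prolyl isomerase ROF2 that binds HSP90, read 7.90, 8.39 and 8.22 on COL-0 N-rich arrays, 6.40, 6.85 and 7.02 on N-absent arrays and 3.35 to 5.28 on the 4 COL-0 dark nitrogen arrays. Hop3, a cochaperone that links HSP70 to HSP90, differed by 1.43 and 1.26 in the light and by -0.32 and 0.38 in the dark, while its relatives Hop1 (-0.01 and -0.10 in the light) and Hop2 (0.34 and 0.42) did not reach the limit. In SALK_070989 on N-absent medium, 1 array stood apart for these genes. Replicate 3 read 7.76 for AT5G48570 beside 5.40 and 5.17, 5.30 for AT2G29500 beside 3.43 and 3.15, and 5.16 for Hop3 beside 3.96 and 3.81. The same array read 4.24 for AT3G01830 beside 7.11 and 7.07, so it was not higher for all members.

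Among regulators, the AP2/ERF transcription factor gene AT1G22810 was at 2.23 to 2.36 on all 6 light N-absent arrays and at 2.23 on every full-medium array. It read 4.90, 5.44 and 5.01 on COL-0 N-rich arrays and 6.05, 5.02 and 6.42 on those of SALK_070989. In the dark the order turned in COL-0, with 4.37 and 4.31 on N-absent and 2.59 and 2.29 on N-rich arrays, while the SALK_070989 arrays overlapped (2.43, 3.56 and 2.57 against 2.75, 2.63 and 3.84). A second AP2/ERF gene, AT2G33710, differed by 2.21 and 2.04 in the light, with 5.09, 5.08 and 3.80 against 2.46, 2.44 and 2.44 in COL-0, and by 0.36 and -0.04 in the dark. The VQ motif genes, whose proteins bind WRKY factors, were represented by AT1G78410 (1.70 and 1.66 in the light) and AT3G56880 (1.03 and 1.18). AT1G78410 read 5.46, 6.13 and 4.95 on COL-0 N-rich arrays and 3.30, 3.41 and 4.73 on N-absent arrays, and 2.23 to 2.31 on all full-medium arrays. AT3G56880 was high everywhere, and its dark difference was negative in both genotypes (-0.68 and -0.58).

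The calmodulin-like gene AT3G01830, a calcium sensor, was present on every nitrogen-experiment array and near the floor on every full-medium array. COL-0 read 7.50, 7.79 and 6.94 on N-rich, 6.18, 6.68 and 5.64 on N-absent, 5.75 and 5.16 on dark N-absent and 4.19 and 4.46 on dark N-rich arrays, beside 2.23 to 2.33 on the 24 full-medium arrays. Its chromosome 3 neighbour AT3G01820, of the adenylate kinase family, was also a member and differed by 1.41 in COL-0 and 1.504 in SALK_070989, but it stayed at 4.49 to 5.48 on full medium. The EF-hand gene AT1G21550 read 5.49, 5.13 and 4.35 against 3.43, 4.32 and 3.23 in COL-0, and lay at 2.82 to 2.95 on all dark nitrogen arrays. AT4G37290, which encodes the precursor of a small secreted peptide, read 5.95, 6.97 and 4.85 on COL-0 N-rich and 3.95, 2.23 and 5.33 on N-absent arrays. Those groups overlapped, and the SALK_070989 groups, at 6.25, 6.07 and 5.18 against 2.37, 2.53 and 3.11, did not. The receptor-like kinase gene AT5G24080 read 4.29, 3.54 and 2.98 on COL-0 N-rich arrays and 5.74, 5.17 and 4.57 on those of SALK_070989. It was at 2.23 on all 10 dark nitrogen arrays.

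DLAH, a lipid acylhydrolase of the family that releases fatty acids for oxylipin synthesis, read 5.34, 5.65 and 4.12 on COL-0 N-rich arrays and 2.81, 2.81 and 2.85 on N-absent arrays, with 6.40, 5.89 and 4.77 against 2.83, 3.65 and 2.81 in SALK_070989. All its dark nitrogen arrays lay between 2.81 and 3.29. AT3G02840, an ARM repeat gene, differed by 2.39 and 1.68, and AT4G27657 by 1.79 and 2.62. AT2G41190, of an amino acid transporter family, showed a different arrangement of levels. It read 5.94, 6.64 and 6.45 on COL-0 N-rich and 4.50, 5.04 and 4.21 on N-absent arrays, 4.27 to 4.46 on the COL-0 dark nitrogen arrays, and 7.07 to 8.08 on the 9 full-medium COL-0 arrays. In SALK_070989 its N-absent arrays were spread widely, at 4.39, 7.03 and 6.28.

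A low level in the dark was common but not general. Both dark nitrogen group means were low for 44 of the 92 members in COL-0 and for 46 in SALK_070989. Among the 47 members with a gene in the annotation, 10 had all 4 dark nitrogen group means at 6 or more. AT5G35735, whose protein carries DOMON and cytochrome b561 domains, read 10.46, 10.16 and 9.74 on COL-0 N-rich arrays and 8.55, 8.68 and 8.22 on N-absent arrays. In the dark both groups lay in between, at 9.93 and 9.59 on N-absent and 9.39 and 9.46 on N-rich arrays. AT3G44190, an FAD-linked oxidoreductase gene, read 10.11, 10.14 and 9.61 against 8.69, 8.39 and 8.09 in the light, and 8.21 and 7.95 against 8.21 and 8.08 in the dark. There the dark level was near that of light N-absent plants. AT4G24160, a lysophosphatidic acid acyltransferase gene, read 9.02, 9.17 and 8.48 against 7.52, 7.29 and 7.43 in the light and 6.85 to 7.20 on the 4 COL-0 dark nitrogen arrays. AT5G66070, a RING finger gene, and AT3G01820 were nearer to the light N-rich level in the dark, at 6.31 to 6.62 and 5.99 to 6.37 in COL-0.

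Some members were lower on N-rich than on N-absent medium in the dark, a direction the rule allowed. The rule left out dark differences of 0.5 or more and the background shares below did not, so the members' counts only describe the set. The dark difference was -0.5 or lower for 21 members in COL-0, beside 11.7% of the 14288 probe sets, for 7 in SALK_070989, beside 11.1%, and for 3 in both. It was -1 or lower for 9 and 5. Of the 21, 11 have a gene in the annotation, among them AT1G22810 (-1.90), AT4G37290 (-1.62), the small heat shock probe set of AT1G59860 and AT1G07400 (-1.20), AT5G48570 (-1.14) and AT3G01830 (-1.12). The SALK_070989 values of these 5 were 0.23, -0.03, 0.34, 0.22 and 0.49. The lowest SALK_070989 values were those of the unannotated 265211_at (-2.27), 266462_at (-1.985) and 248352_at (-1.75), with 0.056, 0.005 and 0.455 in COL-0. The unannotated 266327_at (-1.41 in COL-0 and -1.45 in SALK_070989) and 245627_at (-1.14 and -1.52) were low in both genotypes. AT3G56880 was the 1 annotated member at -0.5 or lower in SALK_070989. One sign of RNA quality, the 3' minus 5' gap between GAPDH probe sets, set apart an array behind the COL-0 values. It was 2.91 on replicate 1 of dark N-absent COL-0, beside 2.04 to 2.33 on all other dark nitrogen arrays. Leaving that array out gave a median dark difference of -0.09 for the members in COL-0, beside -0.10 with it. The COL-0 dark groups held 2 arrays each, and without any 1 of the 4 the count of 21 became 19 to 22.

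The nitrogen levels were also set against plants left on full medium. The choice of members used the N-rich and N-absent means, so these counts describe the set. Both full-medium light groups lay nearer to N-absent than to N-rich for 84 members in COL-0 and 87 in SALK_070989. N-rich means exceeded both by at least 1 for 77 and 85 members, beside 8.57% and 10.1% of the 14288 probe sets. N-absent means did so for 20 and 32 members, beside 9.01% and 9.71%, and fell below both by at least 1 for 4 and 2, beside 5.94% and 5.92%. AT5G35735 was the clearest annotated case of a gene above full medium on both treatments, at 4.09 to 4.22 in the COL-0 steady group and 3.92 to 4.06 in the COL-0 light group. SAG29, the sucrose transporter SWEET15, was the clearest opposite case. It read 8.18, 7.89 and 8.07 in COL-0 steady plants and 7.30, 6.48 and 7.18 in COL-0 light plants, but 4.71, 3.75 and 3.78 on N-rich and 2.62, 2.68 and 2.99 on N-absent medium. These groups come from different experiments, and medium, transfer and experiment cannot be told apart. In the dark, N-absent means exceeded full-medium dark means by at least 1 for 32 members in COL-0, beside 21.5%, and 22 in SALK_070989, beside 17.9%. They were lower by at least 1 for 6, beside 18.4%, and 4, beside 14.2%.

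Full-medium darkness was tested on arrays that the choice of members did not use. In the same contrast RCA fell by 2.64 in COL-0 and by 2.66 in SALK_070989 (adjusted p = 1.6e-25 and 1.7e-25 by limma), and PYK10 differed by -1.10 and -0.77 (adjusted p = 2.9e-09 and 3.8e-06). In COL-0, 14 members rose and 17 fell in the dark (limma with Benjamini-Hochberg adjustment over all 14288 probe sets), and 60 of the 91 tested did not pass. The untested member, AT4G22980, had no group mean above 4. Darkness was a very broad contrast, with 38.1% of the 14288 probe sets rising and 38.2% falling, 76.3% in all. The members' counts were below this background in both directions, but both means were low for 47 members. Members low in both groups could hardly pass, so the lower counts are not read as a result about the set. In SALK_070989, 17 rose and 16 fell, beside 37.5% and 36.7% (74.3% in all), and both means were low for 49. Of the members with a COL-0 light or dark mean of at least 4, numbering 45, 13 rose and 15 fell. The share of all probe sets with such means was not counted, so these counts have no matched background. In both genotypes 13 rose and 14 fell, 10 passed in 1 genotype, 0 passed in opposite directions, and 54 passed in neither. The set thus held members of both signs under darkness, and its median difference was 0.

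SAG29 fell from 7.30, 6.48 and 7.18 in the light to 2.99 on all 3 dark arrays in COL-0, a difference of -3.99 ± 0.30 (SE, adjusted p = 1.7e-14 by limma), and by 2.56 ± 0.30 on the log2 scale in SALK_070989 (adjusted p = 1.5e-09). AT1G48100, of the polygalacturonase family that cuts cell wall pectin, fell from 5.91, 6.11 and 5.67 to 2.23, 2.29 and 2.23 in COL-0 (-3.65 ± 0.28, adjusted p = 2.2e-14) and from 4.30, 4.63 and 4.56 to 2.29, 2.23 and 2.23 in SALK_070989 (-2.25 ± 0.28, adjusted p = 4.4e-09). The dark AT1G48100 arrays of both genotypes were at the floor, so its measured falls are lower bounds. SAG29 was also low in the dark in both genotypes, with the same reading on all 3 COL-0 arrays, so its falls may be understated as well. Smaller falls in COL-0 and SALK_070989 were those of AT1G19970, of the ER lumen retention receptor family (-2.06 and -2.11), AT2G37870, of the lipid transfer family (-1.94 and -2.003), and the chaperone-linked AT5G48570 (-1.73 and -1.05). The largest fall of any member was that of 254343_at (-5.26 and -4.26), which was picked after its values were seen and has no gene name here.

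AT1G21680 rose most in the dark, from 8.50, 8.69 and 8.46 to 12.08, 11.95 and 12.23 in COL-0 (3.54 ± 0.16, adjusted p = 4.4e-21 by limma) and by 3.31 ± 0.16 in SALK_070989. AT4G19880, of the glutathione transferase family, rose from 7.56, 7.62 and 7.07 to 9.91, 9.94 and 9.70 in COL-0 (2.44 ± 0.22, adjusted p = 1.7e-12) and by 2.71 ± 0.22 in SALK_070989. UGT73B1 rose by 2.38 ± 0.23 (adjusted p = 1.1e-11) and 1.78 ± 0.23 (adjusted p = 1.2e-08). For these 3 genes the light and dark arrays did not overlap in either genotype. AT5G66070 (1.43 and 1.30), AT2G36950, a heavy-metal-associated domain gene (1.22 and 1.11), and AT5G15870, of a glycosyl hydrolase family (1.10 and 0.74), also rose in both. Genes higher on N-rich medium in the light were therefore found among the transcripts raised by darkness as well as among those lowered by it. AT5G35735 (0.05 ± 0.16 in COL-0) and AT4G24160 (-0.12 ± 0.14) did not pass in either genotype, and AT2G33710 passed in SALK_070989 (1.18 ± 0.24, adjusted p = 5.6e-05) and not in COL-0 (0.32 ± 0.24). The difference between the genotypes for AT2G33710 did not pass either (adjusted p = 0.23).

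**Figure D3:**
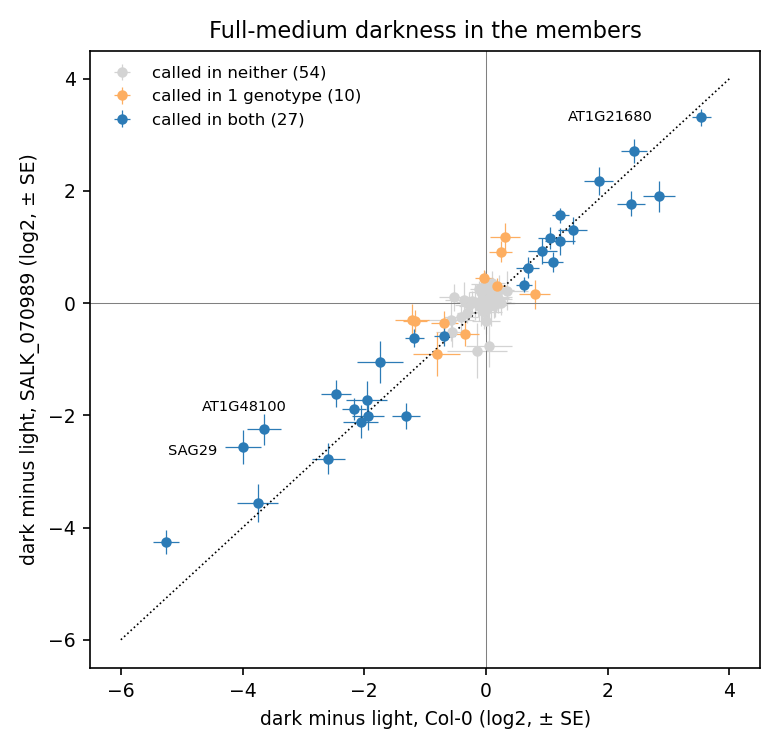
Dark minus light difference on full medium (log2, with standard errors) in COL-0 (x axis) and SALK_070989 (y axis) for the 91 members tested, coloured by how many genotypes passed the limma test (27 in both, 10 in 1 and 54 in neither). The dotted line marks equal differences, and AT1G48100 and SAG29 lie above it at -3.65 and -3.99 in COL-0.

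The dark by genotype difference passed for 1 of the 91 members tested, beside 2.22% of all probe sets: AT1G48100, with an estimate of 1.40 ± 0.39 (adjusted p = 0.048 by limma). Both genotypes were at the floor in the dark, so this estimate equals the light-group difference between the genotypes and does not show that the falls differed. At an unadjusted p under 0.05 by limma the count was 12. The share of all probe sets at that threshold was not counted, so the 12 are not read as a result about the set. The call rested on a narrow margin, since it was kept without COL-0 light replicate 3 and lost without any 1 of the other 11 arrays (adjusted p 0.064 to 0.12), and lost without the filter on low values (adjusted p = 0.083). SAG29 had a difference of like size that did not pass (1.43 ± 0.42, adjusted p = 0.063). Its dark levels were also low in both genotypes, at 2.90 to 2.99.

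On full medium in the light, few members differed between the WRKY1 insertion lines and COL-0. In the steady groups, 3 members were higher in SALK_016954, beside 2.38% of all 14288 probe sets, and 2 lower, beside 0.896%. In SALK_136009, 2 were higher (background 5.07%) and 3 lower (3.41%), and in SALK_070989, 4 were higher (5.61%) and 7 lower (6.88%), all by limma. SALK_070989 steady replicate 3 had a GAPDH 3' minus 5' probe set difference, a sign of RNA quality, of 3.02, beside 1.95 to 2.40 on the other 11 steady arrays. Without it the count in SALK_070989 was 10. These counts were small, and each share of the 92 lay within a few percentage points of its background. The 3 lines were compared with the same 3 COL-0 arrays. AT3G56880, the VQ motif gene, passed in all 3 lines: COL-0 read 7.85, 7.46 and 7.87, SALK_016954 8.12, 8.29 and 8.27, SALK_136009 8.58, 8.86 and 8.44, and SALK_070989 8.11, 8.35 and 8.33. The differences by limma were 0.50 ± 0.13 (SE) with an adjusted p of 0.029, 0.90 ± 0.13 with 1.5e-05, and 0.53 ± 0.13 with 0.0056. Without COL-0 replicate 2 they were 0.37 (adjusted p = 0.25), 0.77 and 0.40 (adjusted p = 0.072), so the SALK_136009 call was the one that did not depend on that array. The SALK_016954 call was also lost without its own replicate 2 or 3 (0.47 and 0.48). AT3G56880 was also higher in SALK_070989 in the separate light group (0.49 ± 0.13, adjusted p = 0.022), a call lost without COL-0 replicate 1 or 2 or SALK_070989 replicate 1 or 3, with differences of 0.38 to 0.59 over the 6 arrays left out.

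UGT73B1 passed in all 3 lines too, at 0.88 ± 0.23 in SALK_016954, 0.84 ± 0.23 in SALK_136009 and 1.04 ± 0.23 in SALK_070989 (adjusted p = 0.023, 0.016 and 0.0015 by limma). COL-0 replicate 2 was low, at 4.90 beside 6.14 and 6.17, and without it the differences fell to 0.46 and 0.42, which did not pass (adjusted p = 0.35 and 0.28), and 0.62, which did (adjusted p = 0.047). The calls were also lost without SALK_016954 replicate 2 or 3 (0.84 and 0.71) and without SALK_136009 replicate 1 or 3 (0.77 and 0.79). AT4G27657 was lower in SALK_016954 (-1.23 ± 0.33, adjusted p = 0.028) and SALK_070989 (-1.22 ± 0.33, adjusted p = 0.0097). It read 5.18, 3.44 and 3.07 in COL-0, and without replicate 1 the differences were -0.59 (adjusted p = 0.32) and -0.58 (adjusted p = 0.22). The first call was also lost without SALK_016954 replicate 2 or 3 (-1.22 and -1.23). Neither UGT73B1 nor AT4G27657 passed in the separate light group. There the SALK_070989 and COL-0 means were 6.57 and 6.20 for UGT73B1, and 2.60 and 2.77, both low, for AT4G27657. In fits to only the groups compared, the calls of AT3G56880, UGT73B1 and AT4G27657 did not pass in any line. AT5G16980 was lower in SALK_016954 (-0.65 ± 0.18, adjusted p = 0.039) and SALK_136009 (-0.74 ± 0.18, adjusted p = 0.008). The first call was lost without any 1 of the 6 arrays, with differences of -0.73 to -0.53, without the filter on low values and in the fit to only the groups compared (adjusted p = 0.063 and 0.11), and the second without COL-0 replicate 3 (-0.61, adjusted p = 0.059). The unannotated 257280_at rose in SALK_016954 (0.76 ± 0.21, adjusted p = 0.040) and 256589_at fell in SALK_136009 (-1.27 ± 0.27, adjusted p = 0.0017), both named after their values were seen.

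AT1G48100 and SAG29 were lower in SALK_070989 in 2 separate light groups. AT1G48100 read 6.34, 6.43 and 6.52 in COL-0 steady plants and 5.19, 4.73 and 4.50 in SALK_070989 (-1.63 ± 0.28, adjusted p = 6.1e-05 by limma), and its light groups differed by -1.40 ± 0.28 (adjusted p = 0.0011). The arrays did not overlap in either group. SALK_070989 steady replicate 3, which stood apart in GAPDH, was the lowest of its group for both genes, and without it the differences were -1.47 for AT1G48100 (adjusted p = 0.0013) and -1.45 for SAG29 (adjusted p = 0.0038). SALK_136009 read 5.89, 5.48 and 5.34 (-0.86 ± 0.28, adjusted p = 0.046), a call kept without SALK_136009 replicate 1 and lost without any 1 of the other 5 arrays, with differences of -1.02 to -0.74. It was also lost without the filter and in the fit to only the groups compared (adjusted p = 0.088 and 0.052). SALK_016954, at 5.86, 5.93 and 5.54, did not pass. For SAG29 neither of these lines passed, with steady means of 7.895 in SALK_016954 and 7.56 in SALK_136009 beside 8.04 in COL-0. SAG29 read 6.38, 6.81 and 6.18 in SALK_070989 steady plants beside 8.18, 7.89 and 8.07 (-1.59 ± 0.30, adjusted p = 0.00026), and 4.55, 5.39 and 6.63 beside 7.30, 6.48 and 7.18 in the light group (-1.47 ± 0.30, adjusted p = 0.0015), where the arrays overlapped. The SALK_070989 light group gave 1 higher member (background 3.81%) and 4 lower ones (1.8%), with the unannotated 258158_at and 261564_at as the other lower members. In the dark, 2 were higher (254343_at and 256633_at), beside 1.46%, and 2 lower (256589_at and 266327_at), beside 1.15%, and none of these 4 has a gene name here.

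**Figure D4:**
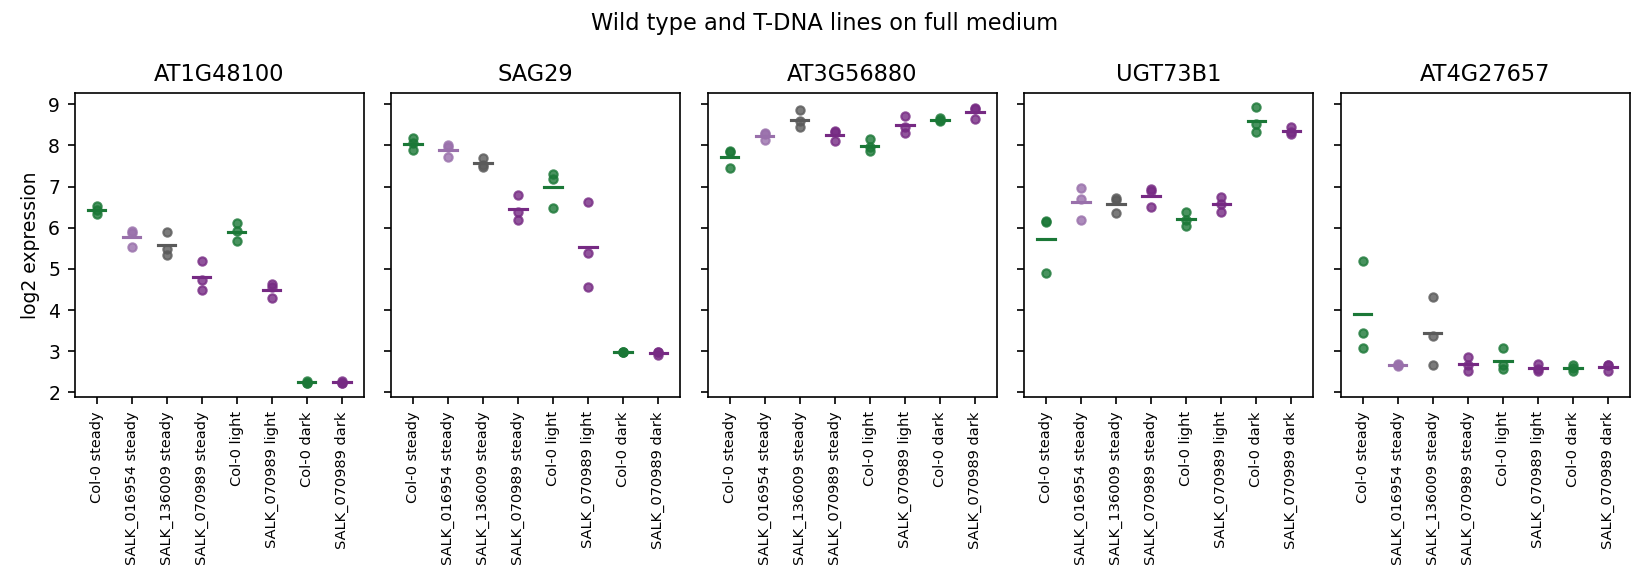
Log2 expression of 5 members on each full-medium array (points) with group means (lines) in COL-0 and the 3 WRKY1 insertion lines. AT1G48100 and SAG29 are lower in SALK_070989 in the steady and light groups and low in the dark, and the low COL-0 steady array of UGT73B1 (4.90) and the high one of AT4G27657 (5.18) are visible.

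On the nitrogen arrays themselves, the light nitrogen difference was larger in SALK_070989 for 61 members and larger in COL-0 for 31, with a median gap of 0.09, and was larger in SALK_070989 for 52.1% of the 14288 probe sets. It was larger by at least 1 for 5 and 1 members. On N-rich arrays SALK_070989 exceeded COL-0 by at least 1 for 10 members beside 0.28% of the 14288 probe sets, and COL-0 exceeded SALK_070989 by that much for 0, beside 0.448%. Members were chosen as high on these arrays, so the shares are no matched background. On light N-absent arrays the counts were 6 and 1, and on dark N-rich arrays 4 and 0, with background shares not counted. AT5G24080 (1.56 on N-rich and 1.45 on N-absent) and AT2G41190 (1.33 and 1.32) were higher in SALK_070989 on both light media. On dark N-absent arrays 4 members were at least 1 higher in SALK_070989, beside 1.94%, and 7 at least 1 lower, beside 1.92%. The widest gaps were there, for 248352_at (5.69), 265211_at (5.22) and 266462_at (4.96), which were picked after their values were seen. The dark N-absent arrays of 248352_at read 2.73 and 3.44 in COL-0 and 8.93, 8.32 and 9.07 in SALK_070989. On dark N-rich arrays the gaps of the 3 probe sets were 3.48, 2.90 and 2.97. AT5G53710 was the clearest annotated case, at 6.85, 6.56 and 6.63 against 5.06, 4.64 and 4.37 on N-rich and 5.38, 6.11 and 4.53 against 2.78, 3.68 and 2.78 on N-absent medium. AT1G05670 was at 2.23 on all 6 N-absent arrays and read 4.97, 4.58 and 4.98 in SALK_070989 and 3.35, 3.94 and 2.97 in COL-0 on N-rich medium. These arrays chose the members, so the genotype differences on them were not tested.

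Known nitrate-response genes were looked up for comparison. From a list of 33, 5 had a probe set in the annotation and 4 were tested, and 0 were members. In the light 3 of the 4 rose on N-rich medium in each genotype, beside 11.6% of all probe sets rising in COL-0 and 9.13% in SALK_070989, and 14.2% and 9.68% falling. In the dark all 4 rose in each genotype, beside 10.6% and 13.6% rising and 9.6% and 15.0% falling. AT1G25550, a GARP-type repressor of nitrogen uptake genes, differed by 2.86 and 2.58 in the light and by 2.77 and 2.44 in the dark. AT1G68670, a related gene, differed by 1.75 and 1.28 in the light and 2.84 and 1.90 in the dark, and AT4G37180 by 3.05, 2.03, 3.09 and 1.69 in the same order. The rule keeps out any gene with a dark difference of 0.5 or more, so that none of these is a member is no finding.

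Of 13 calcium-sensing genes, 6 were kept and AT3G01830 was the 1 member. Of the other 5, CML38 differed by 0.28 and 1.51 in the light and 0.31 and 0.82 in the dark, and CML41 was negative throughout (-2.32 and -0.76, then -1.65 and -0.86). Of 27 rapid stress and touch genes 4 were tested, and 2 rose and 1 fell in the light in each genotype. With the replicate number as a block, PUB23 (0.54) also passed in COL-0 in the light (adjusted p = 0.039, beside 0.051 without the block). In the dark 0 rose and 2 fell in COL-0, and 2 rose and 0 fell in SALK_070989. The zinc finger gene STZ differed by 1.71 and 2.04 in the light and by 0.58 and 1.04 in the dark, and the ubiquitin ligase gene PUB24 by 1.98 and 1.41, then by -0.10 and 1.20. Of 12 sugar-starvation genes 8 were tested and 0 were members. On N-rich medium 4 rose and 1 fell in COL-0 and 5 rose and 1 fell in SALK_070989 in the light, and 8 and 6 rose in the dark. The cytokinin and abscisic acid lists had 1 tested gene each, which was no member, and the annotation paired no probe set with the jasmonate, ethylene and salicylate lists.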

How the data were processed

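The authors deposited 1 table of log2 expression values for 46 Affymetrix ATH1 arrays, and the submitters' processing notes name GCRMA, which corrects background by probe sequence and normalizes across arrays. The log2 scale was read from the range of the values, 2.23 to 14.63. The values were used as deposited, with no further normalization. Arrays were grouped by their titles. A group-means model was fitted to all arrays with limma 3.58.1 in R 4.3.3, with empirical Bayes moderation (30 residual and 4.97 prior degrees of freedom) and Benjamini-Hochberg adjustment over the 14288 probe sets whose highest group mean was above 4. The threshold was an adjusted p of 0.05, and the fit was tested on simulated data. The members and gene lists were chosen with earlier results of these data known. The nitrogen contrasts chose the members, so they were fitted for all probe sets but are given for the members as values with no test, and calls in them are given only for the other listed genes and the background shares. Genes named are those with the 12 largest light differences, list genes, up to 5 members in each direction per test without overlapping arrays, and those at the limits. Other names were chosen after their values were seen. Gene names come from GEO's platform annotation, which lists 14016 probe sets, 13513 of them with 1 gene, 503 with several, and leaves 8794 unnamed here. The labels share replicate numbers across groups, and the deviations of same-numbered arrays correlated at -0.271 to 0.157 in the full-medium groups, where the numbers were not taken to pair arrays. In the nitrogen groups of 3 arrays they correlated at -0.053 to 0.485, with every pair over 0.1 between COL-0 N-rich and N-absent arrays and between the genotypes' N-absent arrays, so a fit with the replicate number as a block was added for the nitrogen contrasts after the data were seen. No label states whether replicate arrays are of separately grown plants, and the p-values therefore reflect the spread between arrays, which may be technical. Precision is limited by 2 or 3 arrays per group. No reference genome sequence was used here.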

Additional observations from a re-analysis of the deposited data

Results flagged for a closer look

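The test of a dark by genotype difference passed for AT1G48100, with an estimate of 1.40 (log2) for darkness in SALK_070989 minus darkness in COL-0 and an adjusted p of 0.048 by limma. The dark arrays of both genotypes lay between 2.23 and 2.29, at the floor of the table, and the light arrays at 4.30 to 4.63 in SALK_070989 and 5.67 to 6.11 in COL-0. With both falls ending at the floor, the estimate restates the light difference and does not show that the effect of darkness differed. The call was lost without any 1 of 11 of the 12 arrays, and without the filter on low values (adjusted p = 0.083).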

How the results depend on the processing

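The light limit of 1 decides the size of the set: a limit of 0.75 gave 149 members and 1.5 gave 42. A dark limit of 0.25 gave 60 and of 0.75 gave 113, a further quantile normalization 90, and leaving out 1 array 83 to 96. With 1 array left out, the members called were 30 to 33 for darkness in COL-0, 29 to 33 in SALK_070989, 0 to 2 for the dark by genotype difference, 0 to 4, 3 to 5 and 6 to 10 for SALK_016954, SALK_136009 and SALK_070989 in the steady groups, and 3 to 6 and 2 to 5 for SALK_070989 in light and dark. The SALK_016954 count was 2 without COL-0 replicate 1, 3 without COL-0 replicate 2 or 3 and 0 without SALK_016954 replicate 2 or 3, and the SALK_136009 count was 3 without its replicate 3. The SALK_070989 steady count was 6 without COL-0 replicate 1 and 7 without COL-0 replicate 3 or its own replicate 2, the light count 3 without COL-0 replicate 1 or SALK_070989 replicate 1 or 3, and the dark count 2 without COL-0 replicate 1 or 2 or SALK_070989 replicate 1. The dark by genotype count was 2 without SALK_070989 dark replicate 2 and 0 without any COL-0 dark array, SALK_070989 dark replicate 1 or 3, or light replicate 1 of either genotype. A fit to only the groups compared gave 0, 1 and 3 members for the 3 lines in the steady groups, 3 in light, 1 in dark and 2 for the dark by genotype difference, with fewer arrays to estimate the spread. Without the filter, the dark by genotype count was 0 and the SALK_016954 count 2, and with a filter at 6 the latter was 3. With the replicate number as a block, the counts were 33 and 34 for darkness, 1 for the dark by genotype difference, 5, 6 and 10 in the steady groups and 6 and 6 in light and dark. The block changed the call of no named member, and of 1 in 100 pairs of a listed gene and a contrast among the nitrogen contrasts. Of 435 pairs of a named gene and an alternative, 379 kept the call, 56 lost it and 0 changed direction. No other cause was tested. Near the floor, differences understate changes, and a low reading does not show that a transcript was missing.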
